A study of Mus musculus with 12 samples.

Results

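Genes of ADP-ribosylation were followed through a total RNA-seq experiment on cultured mouse OPCs (oligodendrocyte precursor cells, from which the myelin-forming oligodendrocytes of the brain arise). The set was fixed by name as Parp1, Parp2, Parp3, Parp8, Parp9, Parp10, Parp11, Parp12, Parp14 and Dtx3l, which are 10 of the 55536 genes quantified. These names were chosen with earlier results of these data known. OPCs came from pooled brains of pups aged P4 to P6 and were selected by Sox10GFP fluorescence or with CD140a beads, without a record of which library used which. Cells were then grown with PDGFaa and bFGF in every group. Ctr-OPCs received no treatment, Dexa-treated OPCs received the synthetic glucocorticoid dexamethasone (1 µM) for 48 h, and IFN-γ-treated OPCs received the cytokine IFN-γ (100 ng/ml) for 48 h. The labels give 4 replicates per group, from different litters, and all carry a mouse model tag of EAE (an autoimmune model of multiple sclerosis) although the cells are cultures from pups. The GFP reporter is switched on by a Cre under the Sox10 promoter.

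PARP enzymes transfer ADP-ribose from NAD onto proteins. Some build long chains, and most attach a single unit. Parp1 and Parp2 are activated by broken DNA and are the chain builders of this set, whereas several of the mono-ADP-ribosyltransferases are known from antiviral and interferon responses. Dtx3l is a deltex-type ubiquitin ligase that works as a complex with Parp9. Enzymes that strip ADP-ribose off and enzymes that make NAD complete the pathway.

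Libraries with complete tables held 19209063 to 52074652 reads in genes. The table of Dexa replicate 3 listed only 33.7% of the transcripts and gave whole values for Parp1, Parp2, Parp8 and Parp10, so 3 Dexa libraries and 11 libraries in all entered the fit. OPC markers were high in every group, with a summed level of 4941 to 8400 CPM (reads scaled to the size of each library) in Ctr-OPCs and 3716 to 7468 CPM in IFN-γ-treated OPCs (6 of 6 markers tested). Among them Pdgfra, Cspg4 and Sox10 were lower after IFN-γ, with log2 fold changes of -0.61, -0.60 and -0.55 (edgeR adjusted p = 0.00971, 0.000260 and 0.000270). Markers of microglia were close to 0. Only 2 of 10 had enough reads to be tested, and their summed level was 0.516 to 1.5 CPM in Ctr-OPCs and 1.06 to 1.73 CPM in IFN-γ-treated OPCs. The 7 astrocyte markers summed to 511 to 1517 CPM in Ctr-OPCs and 1039 to 1587 CPM in IFN-γ-treated OPCs. Of these Gfap, Aldh1l1 and Aldoc were called higher (log2 fold changes 3.99, 0.76 and 0.88) and Aqp4 and Gja1 lower (-0.84 and -0.36). Summed neuron markers (3 of 5 tested) were at 14 to 16.9 CPM in Ctr-OPCs and 17.4 to 25 CPM in IFN-γ-treated OPCs, and summed oligodendrocyte markers (5 of 6 tested) at 29.8 to 170 and 21.2 to 115 CPM. Among neuron markers Syt1 was called higher (log2 fold change 1.11, edgeR adjusted p = 0.000545) and Snap25 lower (-0.46, edgeR adjusted p = 0.00650). In Dexa-treated OPCs the summed OPC markers were at 5675 to 8845 CPM and the astrocyte markers at 1095 to 1968 CPM. Dexamethasone raised Cspg4 by 0.65, Aldoc by 0.98 and Snap25 by 0.67 on the log2 scale (edgeR adjusted p = 0.00468, 0.0163 and 0.0146). The endothelial marker Flt1, below 7 CPM in every library, rose by 1.01 (edgeR adjusted p = 0.0131), and no other marker was called for dexamethasone. The part of these cells in the results was not tested. In bulk libraries, fewer cells of a type and less RNA per cell cannot be told apart.

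IFN-γ raised 8 of the 10 genes and lowered 0 at an adjusted p under 0.05 (edgeR quasi-likelihood test paired by replicate, adjusted over 17919 genes). Of all genes tested, 16.0% were called higher and 15.3% lower in this comparison. In 7 of the 10 genes every IFN-γ library lay above every Ctr library, against 8.94% of all genes. The 10 genes had a median log2 fold change of 5.12, and all genes had a median of -0.01. Because the set was chosen with earlier results of these data known, the shares of all genes give scale and are no test of the family. Of 7 other PARP family members, described below, 2 were called higher. All 10 genes of the set would have passed the filter on low counts without the IFN-γ libraries. Parp1 and Parp2, the chain builders, were the genes not called. For dexamethasone, 0 of the 10 passed the test, against 1.31% of all genes called higher and 0.262% called lower.

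**Figure D1:**
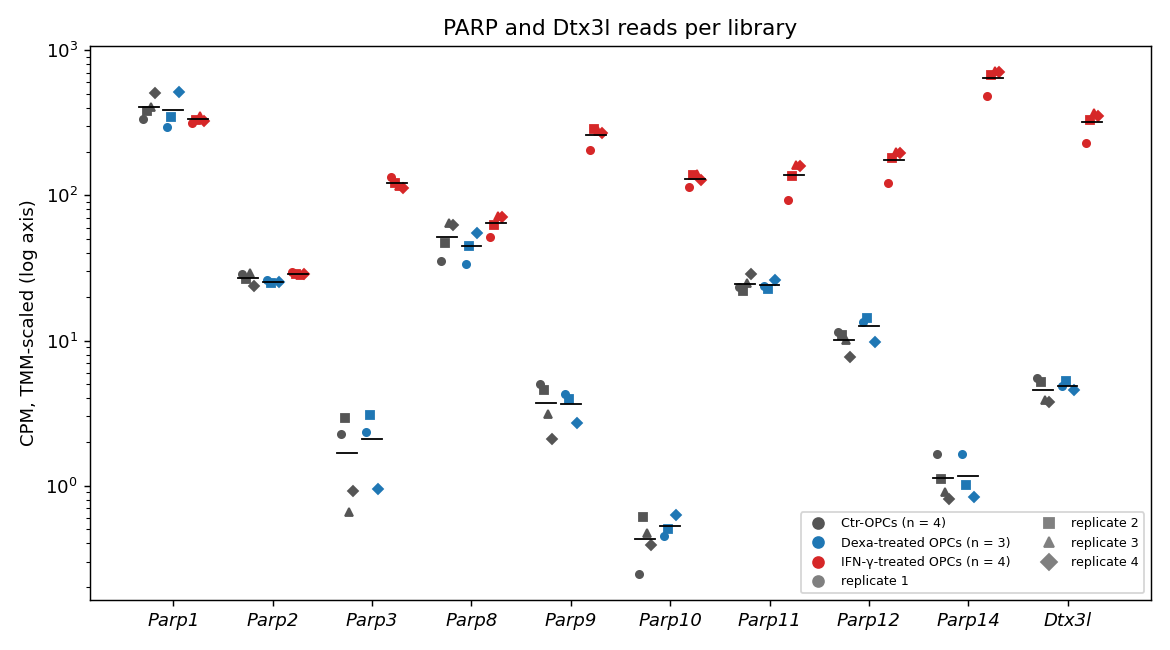
Reads of the 10 genes in each library, as CPM after TMM scaling on a log axis; points are libraries, shapes are replicates, colours are groups and black lines are group means. IFN-γ libraries stand above all others for Parp3, Parp9, Parp10, Parp11, Parp12, Parp14 and Dtx3l, and Ctr and Dexa libraries overlap for every gene.

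Parp9, Dtx3l and Parp14 are neighbours on chromosome 16 in GRCm38. Parp9 lies on the plus strand at chr16:35938470-35972605, Dtx3l on the minus strand at chr16:35926511-35939151, and Parp14 on the minus strand at chr16:35832874-35871544. Parp9 is catalytically weak alone and acts with Dtx3l. Parp14, a large enzyme with macrodomains that bind ADP-ribose, was first described as a cofactor of STAT6. Parp14 was nearly silent in Ctr-OPCs, at 1.66, 1.11, 0.910 and 0.815 CPM in replicates 1 to 4, from 61, 60, 44 and 25 reads. After IFN-γ it stood at 483, 677, 718 and 705 CPM, the highest of the set on this scale. The edgeR log2 fold change was 9.16 (adjusted p = 8.03e-10), and the 4 pairs gave 9.20 ± 0.71 (SD, n = 4). That fold change ranked 45th from the highest of 17919 genes.

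Parp9 was measured at 5.05, 4.57, 3.10 and 2.09 CPM in Ctr-OPCs and at 206, 286, 280 and 267 CPM in IFN-γ-treated OPCs. Dtx3l was measured at 5.49, 5.18, 3.87 and 3.75 CPM in Ctr-OPCs and at 231, 330, 369 and 354 CPM in IFN-γ-treated OPCs. The groups were far apart for both genes, and the IFN-γ library of replicate 1 was the lowest of its group in each. Parp9 rose by a log2 fold change of 6.14 (adjusted p = 1.02e-08) and Dtx3l by 6.12 (adjusted p = 2.09e-09). Within pairs, the log2 ratios of the partners differed by 0.07 ± 0.25 (SD, n = 4), so their order was not resolved. The TPM level of Parp9 over that of Dtx3l was 1.33 ± 0.24 in Ctr-OPCs (n = 4), 1.24 ± 0.28 in Dexa-treated OPCs (n = 3) and 1.62 ± 0.12 in IFN-γ-treated OPCs (n = 4), with overlapping group ranges. Within pairs it was higher after IFN-γ in 4 of 4 pairs against Ctr-OPCs, by 0.285 ± 0.167, and in 3 of 3 against Dexa-treated OPCs, by 0.407 ± 0.171 (SD). Exact two-sided sign-flip permutation tests gave p = 0.125 and p = 0.25, the smallest that 4 and 3 pairs allow. The TPM of a gene sums all its transcripts, and few reads on a short transcript weigh much in it. Parp9-205, annotated as retaining an intron, held 4.47% of Parp9 TPM in Ctr-OPCs and 11.2% in IFN-γ-treated OPCs. Its share of Parp9 reads was 0.793% and 2.25%. The ratio of the coding transcripts alone was not tested. The partners overlap head to head on opposite strands and share 458 exon bases, which are 9.40% of the exon bases of Parp9 and 8% of those of Dtx3l. The study names a stranded library kit. The strand setting used in quantification is not given in the sources used here, so reads from these bases may have been split between the genes.

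Parp10, Parp11 and Parp12 attach single ADP-ribose units. Parp10, at chr15:76231174-76243441 on the minus strand, was first found as a partner of MYC. In Ctr-OPCs it had 9, 33, 23 and 12 reads, which is 0.244, 0.613, 0.476 and 0.391 CPM. In IFN-γ-treated OPCs it had 3787, 4956, 4010 and 3341 reads, at 114, 139, 140 and 128 CPM. Its log2 fold change of 8.19 (adjusted p = 1.22e-11) came second in the set and 69th of all genes. Pair ratios ran from 7.82 to 8.87, and a same-strand overlap with Plec covers 4.8% of its exon bases.

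Parp12, a zinc finger member that restricts viruses, lies at chr6:39086410-39118349 on the minus strand. It stood at 11.4, 10.8, 10.2 and 7.69 CPM in Ctr-OPCs and at 122, 181, 199 and 197 CPM in IFN-γ-treated OPCs. The log2 fold change was 4.12 (adjusted p = 6.21e-08), and pairs ranged from 3.41 in replicate 1 to 4.68 in replicate 4. Parp11, an enzyme of the nuclear envelope, lies at chr6:127446840-127494261 on the plus strand. It was already well expressed in Ctr-OPCs, at 23.2, 21.9, 24.8 and 28.7 CPM, and reached 93.1, 136, 161 and 160 CPM after IFN-γ. Its log2 fold change of 2.46 (adjusted p = 9.63e-08) was the lowest of the 7 genes whose groups did not overlap.

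Parp3, at chr9:106470322-106476949 on the minus strand, is a mono-ADP-ribosyltransferase of double-strand break repair, and like Parp1 and Parp2 it is activated by DNA breaks. Ctr-OPCs had 2.25, 2.92, 0.662 and 0.913 CPM, and IFN-γ-treated OPCs had 134, 122, 116 and 113 CPM. The log2 fold change was 6.23 (adjusted p = 7.08e-08), beside Parp9 and Dtx3l in size. Replicates 1 and 2 had more Parp3 than replicates 3 and 4 in Ctr-OPCs and in Dexa-treated OPCs (2.35, 3.05 and 0.942 CPM in replicates 1, 2 and 4). Pair ratios were accordingly lower in replicates 1 and 2, at 5.89 and 5.38, than in replicates 3 and 4, at 7.45 and 6.95. Replicates 3 and 4 also share a prefix in their sample titles, whose meaning is not stated. IFN-γ replicate 1 had the highest Parp3 of its group, whereas for 8 of the 10 genes it was the lowest library of its group.

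Parp8, a little-studied mono-ADP-ribosyltransferase at chr13:116854820-117025537 on the minus strand, changed far less. It was measured at 35.1, 46.9, 64.0 and 62.3 CPM in Ctr-OPCs and at 51.7, 62.9, 72.5 and 70.8 CPM in IFN-γ-treated OPCs. The groups overlapped, but each IFN-γ library exceeded the Ctr library of its own replicate, by log2 ratios of 0.56, 0.42, 0.18 and 0.18. The log2 fold change was 0.34 (adjusted p = 0.00427). Without the replicate block the estimate was 0.31 and the call was lost (adjusted p = 0.466).

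Parp1, the main sensor of DNA breaks, lies at chr1:180568924-180601254 on the plus strand, and Parp2, its close relative, at chr14:50807841-50821301 on the plus strand. Parp1 stood at 336, 382, 409 and 510 CPM in Ctr-OPCs and at 318, 333, 355 and 328 CPM in IFN-γ-treated OPCs. Its IFN-γ libraries were lower in 4 of 4 pairs, with a log2 fold change of -0.27 that missed the threshold (adjusted p = 0.0719). Parp1 passed under 5 of 17 alternative analyses, among them DESeq2 with the replicate block. Over all 17 the estimate ran from -0.36 to -0.15, the last without IFN-γ replicate 4 (adjusted p = 0.130). Parp2 stood at 28.6, 26.6, 29.1 and 23.8 CPM in Ctr-OPCs and at 29.8, 28.7, 28.2 and 29.0 CPM in IFN-γ-treated OPCs. Its log2 fold change was 0.10 (adjusted p = 0.273), higher in 3 of 4 pairs.

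**Figure D2:**
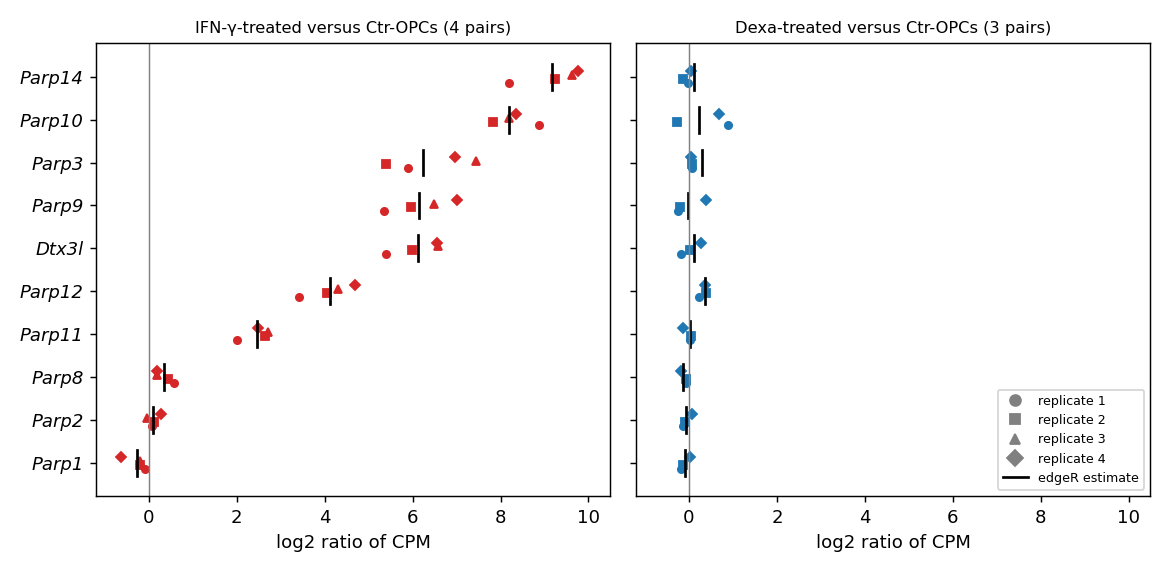
log2 ratios of CPM within replicate pairs for IFN-γ (left, 4 pairs) and dexamethasone (right, 3 pairs) against Ctr-OPCs, with the edgeR estimate as a black bar. IFN-γ ratios run from -0.64 for Parp1 to 9.76 for Parp14, and all dexamethasone ratios lie between -0.28 and 0.88.

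The plot of pair ratios orders the genes into steps. Pair ranges did not overlap between Parp10 and Parp3, between Dtx3l and Parp12, between Parp12 and Parp11, between Parp11 and Parp8, or between Parp2 and Parp1. Those of Parp14 and Parp10 overlapped, as did those of Parp3, Parp9 and Dtx3l, and those of Parp8 and Parp2. For Dtx3l, Parp9, Parp11, Parp12 and Parp14, 5 of the 8 genes called, the smallest ratio was that of replicate 1.

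Levels of different genes were compared as TPM, a level scaled by transcript length. Ctr-OPCs were dominated by Parp1, at 72.3 ± 12.8 TPM (SD, n = 4), which made up 65.5% ± 2.6 of the summed TPM of the set. Parp2 (12.7 TPM), Parp8 (11.6 TPM) and Parp11 (8.98 TPM) followed with overlapping ranges, then Parp12 at 2.28 TPM. Parp9, Parp3 and Dtx3l were between 0.565 and 0.767 TPM on average, and Parp14 and Parp10 were at 0.0971 and 0.0896 TPM. In IFN-γ-treated OPCs the mean summed level rose from 110 to 442 TPM, with ranges of 86.8 to 123 and 357 to 519. Parp1 was then 15.2% ± 1.5 of the sum at a mean of 66.6 TPM. Parp9 (71.2 ± 14.1 TPM), Parp1 and Parp14 (65.8 ± 13.3 TPM) had overlapping ranges at the top. Parp3, Dtx3l, Parp12 and Parp11 had means of 43.4 to 45.0 TPM, Parp10 had 30.3 TPM, and Parp8 (16.0 TPM) and Parp2 (15.1 TPM) were lowest. Among neighbours in this order, Parp10 and Parp8 were the only pair whose ranges did not overlap.

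**Figure D3:**
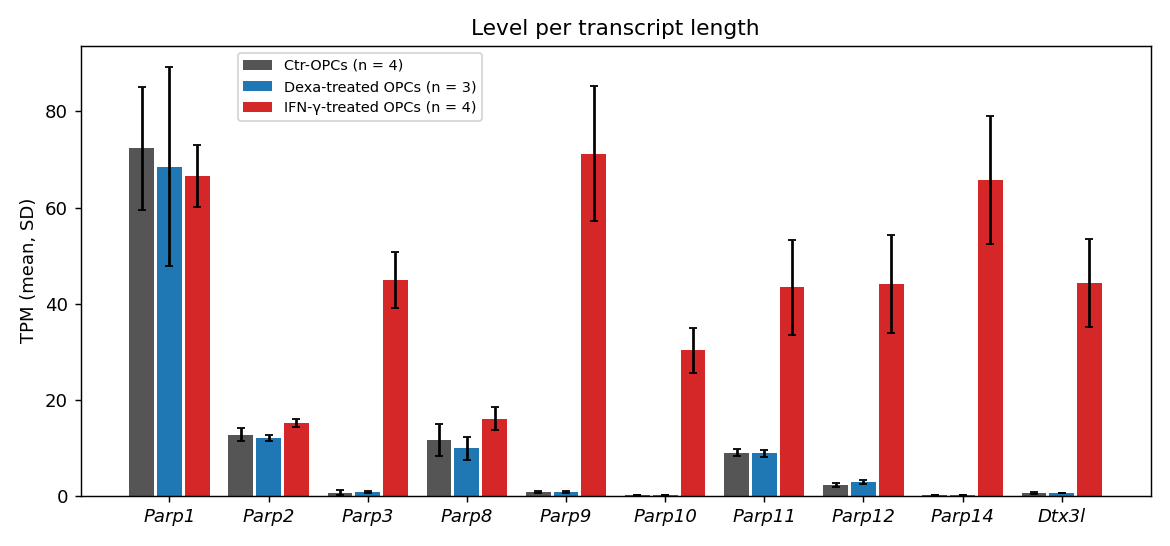
Mean TPM of each gene per group, with SD as error bars. Parp1 is the tallest bar in Ctr-OPCs and Dexa-treated OPCs (72.3 and 68.5 TPM), whereas Parp9, Parp1 and Parp14 reach similar heights in IFN-γ-treated OPCs.

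Reads of each gene were divided among transcripts by the authors' software. Shares were compared for the 15 transcripts of the set that held at least 10% of the reads of their gene in either group and not over 90% in both. In 5 of the 15, Ctr and IFN-γ libraries did not overlap, against 4.58% of the 21472 transcripts of all tested genes that met the same rule. Shares within a gene sum to 100%, so transcripts of the same gene are not independent, and the genes are in the set by name. Each of these 5 had an exact two-sided permutation p = 0.0286, the smallest that 4 against 4 libraries allow, and an adjusted p = 0.0857, so none passes after adjustment. They were Parp9-203, Parp9-201, Parp11-202, Parp11-201 and Parp3-203. Parp3-203 held 18.9% ± 3.7 of Parp3 reads in Ctr-OPCs and 29.0% ± 3.0 in IFN-γ-treated OPCs.

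Parp9 has a pair of main transcripts whose starts lie 541 bases apart. Parp9-203, from the upstream start at chr16:35938470, held 78.9%, 78.4%, 58.1% and 52.7% of Parp9 reads in Ctr-OPCs and 22.4%, 23.9%, 21.6% and 24.5% in IFN-γ-treated OPCs. Parp9-201, from the start at chr16:35939011, held 16.7%, 15.1%, 34.1% and 36.8% in Ctr-OPCs and 67.1%, 65.0%, 67.2% and 63.1% in IFN-γ-treated OPCs. Dexa-treated OPCs stood with the controls, at 66.7%, 72.6% and 78.0% for Parp9-203. The leading transcript in the estimates was Parp9-203 in Ctr-OPCs and Parp9-201 in IFN-γ-treated OPCs, while both had more reads after IFN-γ. The mean of Parp9-203 was 115 reads in Ctr-OPCs and 1851 in IFN-γ-treated OPCs, and that of Parp9-201 was 35.7 and 5250. The first exons of both lie at least in part opposite to the first exon of Dtx3l, and the division of reads between transcripts is an estimate of the authors' software.

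Parp11-202 starts at chr6:127446840, 6883 bases before the start of the main transcript Parp11-201 at chr6:127453723. It was assigned 64.1 reads in Ctr replicate 1 and below 1 read in the other 3 Ctr libraries. After IFN-γ it was assigned 832, 790, 877 and 910 reads, or 27.0%, 16.3%, 18.9% and 21.8% of Parp11 reads. Parp11-201 held 78.8% ± 4.0 of Parp11 reads in Ctr-OPCs and 68.1% ± 4.9 in IFN-γ-treated OPCs, with means of 812 and 2879 reads. In Dexa-treated OPCs Parp11-202 had 52.8 reads in replicate 1 and 0 in replicates 2 and 4, so outside IFN-γ treatment this transcript was seen in replicate 1 only.

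**Figure D4:**
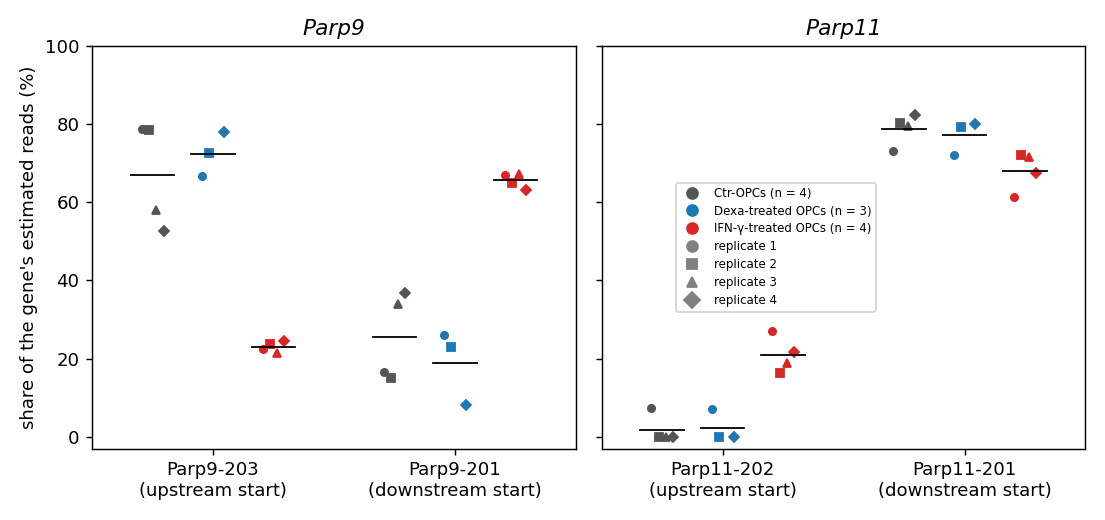
Share of estimated reads (%) held by the transcripts of Parp9 and Parp11 that begin at the upstream or the downstream start; points are libraries, shapes are replicates and black lines are group means. Parp9-201 leads in IFN-γ libraries and Parp9-203 in Ctr and Dexa libraries, and Parp11-202 lies at 16.3% or above in IFN-γ libraries and at 7.50% or below elsewhere.

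The bases before both starts of Parp11 are shown because the read shares of their transcripts did not overlap between Ctr and IFN-γ libraries, a difference that did not pass after adjustment. The stretches are the 250 bases upstream of each RefSeq start on the plus strand (GRCm38.p6), at chr6:127446590-127446839 for the distal and chr6:127453377-127453626 for the proximal start. Capitals mark matches to either of a pair of motifs searched on both strands, the gamma-activated site (GAS, TTCNNNGAA) and the interferon-stimulated response element (ISRE, GAAANNGAAA or TTTCNNTTTC, bound by interferon regulatory factors).
Parp11 distal: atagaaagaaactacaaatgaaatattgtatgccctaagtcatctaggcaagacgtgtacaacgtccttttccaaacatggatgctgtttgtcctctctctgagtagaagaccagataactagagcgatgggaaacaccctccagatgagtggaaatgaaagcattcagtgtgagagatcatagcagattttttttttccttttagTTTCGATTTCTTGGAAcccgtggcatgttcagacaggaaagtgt
Parp11 proximal: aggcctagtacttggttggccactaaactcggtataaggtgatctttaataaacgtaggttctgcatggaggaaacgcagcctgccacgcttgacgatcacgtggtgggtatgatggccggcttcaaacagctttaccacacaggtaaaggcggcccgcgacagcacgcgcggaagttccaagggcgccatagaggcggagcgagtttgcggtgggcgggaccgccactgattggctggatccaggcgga
The distal stretch held an ISRE match at positions -44 to -35 and a GAS match at -37 to -29 counted from the start, which overlap by sharing letters of the run TTTCGATTTCTTGGAA. The proximal stretch held 0 matches. Windows from 250 bases before to 50 bases after the start were found in RefSeq for 7 of the 10 genes, all but Parp9, Parp10 and Parp14. Among these windows the distal one of Parp11 alone held either motif. The window of Parp3, whose Parp3-203 shares also did not overlap, held 0 matches and is not shown. Of 32851 mouse windows of the same length, 8.30% held the GAS letters, 3.44% the ISRE letters and 0.454% both. A match describes letters in a window, not binding, and a window without a match, such as that of Dtx3l, Parp3 or Parp12, says only that these letters were not in it.

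Dexamethasone gave no call in the set, and its values overlapped those of Ctr-OPCs for every gene. In edgeR 0 of the 10 genes passed, against 1.31% of all genes called higher and 0.262% called lower. With so few calls over all genes, 0 calls among 10 do not set these genes apart. The count at an unadjusted p under 0.05 was also 0. Neither that count nor the overlap has a share over all genes beside it. DESeq2 with and without the replicate block also called 0. Estimates ran from -0.13 for Parp8 (adjusted p = 0.609) to 0.36 for Parp12 (adjusted p = 0.564). Parp12 stood at 13.4, 14.3 and 9.84 CPM in Dexa replicates 1, 2 and 4, higher than its Ctr library in 3 of 3 pairs by 0.23, 0.39 and 0.36. Parp14 (1.64, 1.01 and 0.838 CPM), Parp9 (4.25, 3.98 and 2.72 CPM) and Dtx3l (4.83, 5.29 and 4.55 CPM) overlapped the Ctr range. Parp10 had 14, 20 and 12 reads, or 0.451, 0.504 and 0.628 CPM. In the incomplete library Parp10 had 18 reads, and with that library added its estimate was 0.46 (adjusted p = 0.489). Parp3 had an edgeR estimate of 0.29 (adjusted p = 0.844) while its 3 pair ratios were 0.05 to 0.06. The replicate block was fitted over all 3 groups, so IFN-γ libraries and Ctr replicate 3 also entered the edgeR estimates for dexamethasone.

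Set directly against Dexa-treated OPCs, IFN-γ-treated OPCs had the same count of calls, with 8 genes higher and 0 lower, against 17.2% of all genes called higher and 16.6% lower. This comparison uses the same IFN-γ libraries as the first. log2 fold changes were 9.05 for Parp14, 7.96 for Parp10, 6.16 for Parp9, 6.0 for Dtx3l, 5.94 for Parp3, 3.75 for Parp12, 2.44 for Parp11 and 0.47 for Parp8, with adjusted p from 8.38e-11 for Parp10 to 0.00122 for Parp8. The call of Parp8 was again lost without the block (adjusted p = 0.206). Parp1 gave -0.19 (adjusted p = 0.251), lower in 2 of 3 pairs. Parp2 gave 0.17 (adjusted p = 0.0894), higher in 3 of 3 pairs at 0.19 to 0.20, and with Dexa replicate 3 added it gave 0.20 (adjusted p = 0.0299).

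The rest of the pathway was followed through 5 lists. Of 35 genes, 32 could be tested, and IFN-γ raised 6 (18.8%) and lowered 3 (9.38%), beside 16.0% and 15.3% of all genes. In edgeR without the replicate block 4 were called, all of them higher, beside 1513 of 17919 genes called in either direction. Among the other PARP family members, 2 of 7 rose. Zc3hav1, the zinc finger antiviral protein, rose from 14.3 ± 3.0 to 135 ± 19 CPM (n = 4 each, log2 fold change 3.26, adjusted p = 2.67e-07). Parp4, the PARP of vault particles, rose from 0.809 ± 0.239 to 4.06 ± 0.27 CPM (2.36, adjusted p = 5.94e-05). Parp6, Parp16, Tiparp and the tankyrases Tnks and Tnks2 were not called, with estimates of -0.18 to -0.01. Among the 4 deltex relatives of Dtx3l, Dtx4 rose by 0.53 (adjusted p = 3.23e-05) and Dtx1 fell by 0.48 on the log2 scale (adjusted p = 0.00279).

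Of the genes that remove ADP-ribose, 6 of 7 were tested and 0 rose, while Macrod2 fell by 0.39 on the log2 scale (adjusted p = 0.00298). Parg, which cuts the chains, was at 68.9 ± 4.5 CPM in Ctr-OPCs and 66.0 ± 3.9 CPM in IFN-γ-treated OPCs (log2 fold change -0.06, adjusted p = 0.517). Of the genes of NAD synthesis, 7 of 9 were tested. Nampt, the rate-limiting enzyme of the salvage route, rose from 57.2 ± 9.1 to 178 ± 26 CPM (1.64, adjusted p = 1.15e-07). Nmnat2 fell by 0.63 on the log2 scale (adjusted p = 0.000215), and its SD was wide, at 248 ± 105 and 161 ± 71 CPM. Of the 8 single-strand break repair partners of Parp1, Hpf1, which redirects Parp1 to serine, rose by 0.28 (adjusted p = 0.0135) and the scaffold Xrcc1 by 0.22 (adjusted p = 0.0238). List medians lay between -0.15 and 0.12, beside -0.01 over all genes.

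**Figure D5:**
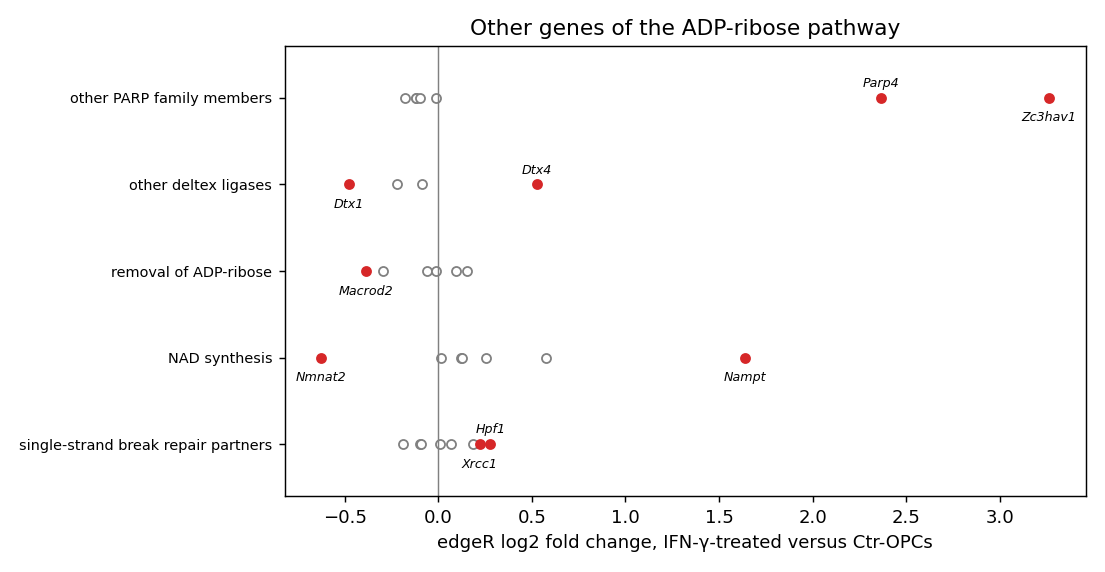
edgeR log2 fold changes of the 32 tested genes in 5 pathway lists, IFN-γ-treated against Ctr-OPCs; filled points passed an adjusted p under 0.05 and are named, open points did not. Zc3hav1, Parp4 and Nampt lie above 1, and all other genes lie between -0.63 and 0.57.

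Dexamethasone changed 1 of the 32, raising Nmnat2 by 0.47 (adjusted p = 0.0318), beside 1.31% of all genes. No pathway gene was called in edgeR or DESeq2 without the replicate block, or in 7 of the 11 fits that left out a library. Against Dexa-treated OPCs, IFN-γ-treated OPCs had 7 genes higher (21.9%) and 5 lower (15.6%), beside 17.2% and 16.6% of all genes. Without the block edgeR called 4 list genes, 3 of them higher, beside 1572 of 17919 genes called in either direction. Zc3hav1 (3.31), Parp4 (1.92), Nampt (1.68), Oard1 (0.43), Dtx4 (0.41), Xrcc1 (0.38) and Hpf1 (0.32) were higher, and Nmnat2 (-1.09), Dtx1 (-0.65), Macrod2 (-0.37), Tnks (-0.28) and Tnks2 (-0.19) were lower.

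The profile of log2 CPM over the 11 libraries was used to find the genes most like Parp9, Dtx3l and Parp14. Pearson's r is given as a description, since it mostly reflects the distance between the IFN-γ libraries and the rest. Closest to Parp9 were C4b, Gbp7, Slfn8, Gbp3 and H2-Q4 (r = 0.997 to 0.998). Closest to Dtx3l were Irgm1, Ifi35, Gbp5, B2m and Gm49730 (r = 0.998 to 0.999), of which Gm49730 overlaps Parp14 on the same strand by 110 exon bases. Closest to Parp14 were H2-Q4, B2m, Gbp7, Gbp5 and Rnf213 (r = 0.998 to 0.999). H2-Q4 and B2m belong to MHC class I antigen presentation, and the Gbp genes and Irgm1 encode interferon-inducible GTPases. Within the set, Parp14 and Dtx3l were the most alike (r = 0.998), followed by Parp9 and Parp14 (r = 0.998).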

How the data were processed

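Total RNA-seq of OPC cultures in 3 groups was analysed from tables the authors deposited. The authors ran Salmon 0.8.2, named in the submitters' processing notes, and deposited for each library an estimated count and a TPM value per transcript. Tables of the authors' own DESeq2 results came with them (holding mean normalized count, log2 fold change, standard error, Wald score, p and adjusted p), which were not used. Transcript identifiers matched GENCODE M21 (GRCm38). The table of Dexa replicate 3 held 47855 of 141862 transcripts and 19130 whole genes.

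Estimated counts were summed per gene and rounded, and TPM were summed per gene. A gene was tested if 4 or more of the 11 libraries held 10 or more counts, which left 17919 genes. The test was the quasi-likelihood test of edgeR 4.0.16 (R 4.3.3) with TMM scaling, replicate number as a block and Benjamini-Hochberg adjustment over all genes tested, and calls were made under 0.05. The study used DESeq2 with no stated covariate, which was an alternative here (1.42.0). edgeR gives no standard error, so the SD of pair ratios is printed. CPM carry TMM scaling, and likeness used log2 CPM with a prior count of 2. The fit was tested on simulated data.

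Replicates came from different litters. Libraries were paired by replicate number. Deviations from group means correlated at 0.414 to 0.745 in the 10 pairs of equal number. Otherwise they correlated at -0.646 to 0.526, so the ranges overlap. No libraries of a group agreed within sampling noise (chi-square per degree of freedom 23.6 to 229). In Ctr and in IFN-γ libraries the lowest value was between replicates 3 and 4 (25.3 and 23.6). Counting precision rests on the printed read numbers, and PCR copies were not told apart. Named genes were all 10 members, every called gene of the pathway lists and the 5 genes most like Parp9, Dtx3l and Parp14. Members and lists were chosen with earlier results of these data known, and the transcripts singled out were chosen after their values were seen.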

Additional observations from a re-analysis of the deposited data

How the results depend on the processing

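Over the 10 genes, calls against Ctr-OPCs and against Dexa-treated OPCs numbered 7 to 9 with no block, in DESeq2 with and without the block, with DESeq2 size factors, with no filter on low counts and with each library left out in turn. Where 9 were called against Ctr-OPCs, 8 were higher and Parp1 was lower. For the fits that left out a library, the shares called over all genes are not given. With Dexa replicate 3 added, 4 of the 10 could be fitted, and 3 were called in either comparison, against 2 of the same 4 in the 11 libraries. Against Ctr-OPCs these were Parp8 and Parp10, both higher, and Parp1, lower. Against Dexa-treated OPCs they were Parp2, Parp8 and Parp10, all higher. That fit tested 6319 genes, and its share called over all genes is not given. The replicate block mattered for small changes. Of the pathway genes called against Ctr-OPCs after IFN-γ, 9 with the block became 4 in edgeR and 5 in DESeq2 without it, and of the 12 called against Dexa-treated OPCs, 4 and 6. The single pathway gene called for dexamethasone against Ctr-OPCs became 0 in both fits without the block, and leaving out a library gave 0 in 7 of 11 fits and 1 in the others. Over all genes, calls for IFN-γ against Ctr-OPCs were 5606 with the block, and without it 1513 in edgeR and 2302 in DESeq2. Calls for dexamethasone were 281, against 22 and 98 without the block, 460 in DESeq2 with it and 645 with no filter. Calls for IFN-γ against dexamethasone were 6043, against 1572 and 2345 without the block. The cause of these differences was not tested. The call of Parp8 was lost without the block in both comparisons, with adjusted p = 0.466 (edgeR) and 0.476 (DESeq2) against Ctr-OPCs and 0.206 and 0.156 against Dexa-treated OPCs. Parp1 against Ctr-OPCs passed in DESeq2 with the block (adjusted p = 0.0356), with no filter (0.00109), without IFN-γ replicate 1 (0.0235), without Dexa replicate 4 (0.0377) and with Dexa replicate 3 added (0.0471); its estimate was -0.15 without IFN-γ replicate 4, and over its 17 alternatives adjusted p ran from 0.00109 to 0.385. Estimates that changed sign were all for dexamethasone against Ctr-OPCs, and none was called. Leaving out libraries moved Parp1 between -0.24 and 0.0093, Parp9 between -0.18 and 0.24, Parp11 between -0.093 and 0.12 and Parp14 between -0.30 and 0.42. Parp11 was -0.027 in edgeR and -0.027 in DESeq2 with no block and -0.0019 with no filter. Depth limits Parp10, whose lowest library held 9 reads.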
